A study of Drosophila melanogaster with 6 samples.

Results

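The cuticle protein genes described here are those whose symbol begins with Cpr and a number, with Ccp84 or with Twdl and a capital letter, together with Acp1 and Acp65Aa. The gene table held 103 such genes, and 92 of them had a probe set of their own among 11982 genes measured that way. The 92 comprised 66 Cpr genes, 22 Twdl genes, 3 genes of the Ccp84A group and Acp65Aa. Another 6, Acp1 among them, were annotated only to probe sets that name several genes, and 5 had no annotated probe set, so these 11 genes have no value here. Expression was read on arrays in whole male flies of the W1118 strain, recorded as wild type, at an age of 30 days. The LCA flies had eaten food with lithocholic acid (LCA), a bile acid, at 50 µmol/l for the 30 days, and the control flies had eaten control food for as long. Each diet had 3 samples, each made from 10 flies homogenized together. Whether the pools of flies on 1 diet were raised apart is not stated, and the p-values rest on the spread between these 3 and 3 pools, some of it perhaps technical.

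The insect cuticle is a layered coat of chitin fibres and proteins that the epidermis lays down on its outer face, and that also lines the trachea, the foregut and the hindgut. Proteins of the Cpr family, which include the Ccp84A group and the Acp65Aa adult cuticle protein, carry the Rebers and Riddiford domain, which binds chitin. Tweedle (Twdl) proteins are a separate insect family of cuticle proteins, in which mutants of some members have short, squat bodies. Most cuticle proteins are made in bursts around each moult, after pulses of the steroid hormone ecdysone. Adult flies do not moult, so the values below show which of these genes give signal weeks after the last moult, and how that signal compares between the diets.

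Signals are log2 values of a probe set, a group of short oligonucleotides that report 1 transcript. Median signals of the arrays lay between 6.38 and 6.39 in LCA arrays and between 6.31 and 6.35 in control arrays. Probe sets differ in how strongly they respond, so a level is placed here against the whole array and is no measure of one transcript's abundance against another's. Pearson correlations over 18769 probe sets, which are not independent, were 0.995 to 0.997 between LCA arrays and 0.984 to 0.994 between control arrays. The labelled sex fitted its markers. SP, the sex peptide of the male accessory gland, averaged 12.82 ± 0.09 in LCA flies, against 12.57 ± 0.09 in control flies (SD, n = 3 each). Yp1, a yolk protein of females, averaged 5.50 ± 0.69 in LCA flies, against 5.27 ± 0.17 in control flies (SD, n = 3 each), below the array median. 

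Most cuticle protein genes were dim in these adults. Of the 92 genes, 12 (13.0%) had a signal above the array median on all 6 arrays, against 7376 of all 11982 genes (61.6%). On all 6 arrays 78 of them (84.8%) lay below the array median, against 30.1% of all genes, and 21 (22.8%) below the 25th percentile, against 7.2% of all genes. The median over the 92 genes of the mean signal was 4.12, where that over all genes was 7.40. At the upper end, 4 were above the 75th percentile of every array and 3 above the 90th. A dim value is not proof of absence, since the table holds no detection call.

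The bright genes were nearly all of the Cpr family. Of the 66 Cpr genes, 11 were above the array median on every array, and of the 22 Twdl genes 1 was, TwdlG. None of the 3 Ccp84A genes was, and neither was Acp65Aa, which read 4.91, 4.66 and 4.92 in LCA flies, against 4.76, 4.79 and 4.73 in control flies. These values of the adult cuticle protein gene lay higher than 37.9% of probe sets on average. The bright genes lay on 3 chromosome arms, with 7 of the 33 genes measured on arm 3L, 4 of 20 on 2R and 1 of 26 on 3R, and none of 6 on 2L or of 7 on X.

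**Figure D1:**
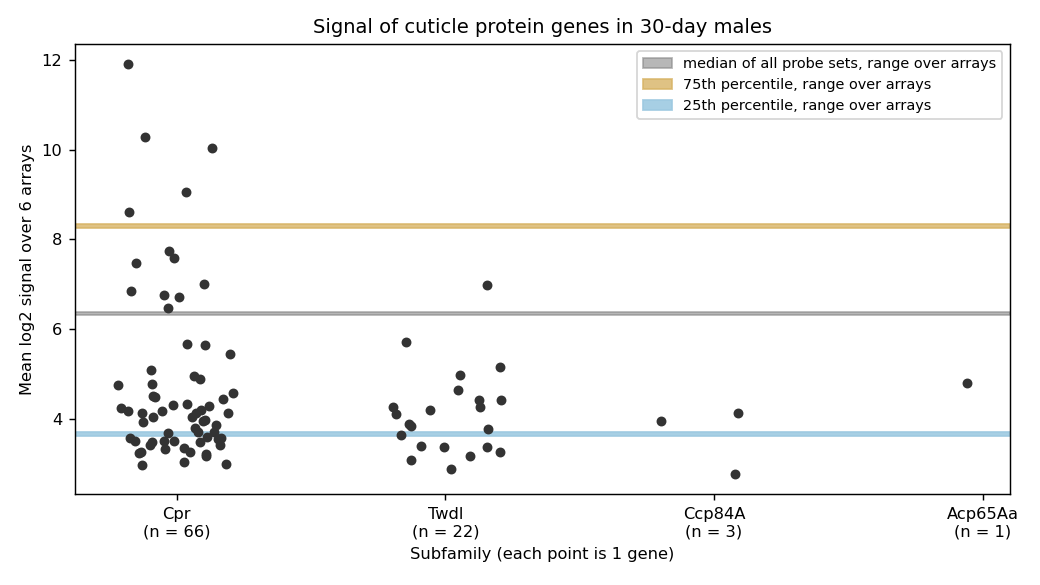
Mean log2 signal over 6 arrays of each cuticle protein gene (1 point per gene), by subfamily, with bands for the 25th percentile, the median and the 75th percentile of all probe sets (range over arrays). Most points lie below the median band, and the points above it are 13 Cpr genes and 1 Twdl gene by their mean.

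The brightest signals came from Cpr67Fb, Cpr65Au and Cpr72Ec, the 3 genes above the 90th percentile of every array. Cpr67Fb read 11.79, 11.97 and 11.28 in LCA flies, against 12.16, 12.02 and 12.18 in control flies, higher than 98.2% of probe sets on average. Cpr65Au read 10.26, 10.32 and 9.86 in LCA flies, against 10.26, 10.62 and 10.39 in control flies. In both genes LCA replicate 3 gave the lowest of the 6 values. Cpr72Ec, a protein of the corneal lens, which is cuticle laid over the eye, read 10.22, 10.33 and 9.89 in LCA flies, against 9.87, 9.82 and 10.06 in control flies, so the diets overlapped. Cpr66D, another protein of the corneal lens, was above the array median with 7.19, 6.98 and 6.97 in LCA flies, against 7.26, 6.75 and 6.88 in control flies. Its control arrays spanned the LCA arrays.

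Cpr67B was the 4th gene above the 75th percentile of every array, with 8.85, 9.02 and 8.82 in LCA flies, against 9.27, 9.33 and 9.03 in control flies. Cpr49Ae read 8.72, 8.57 and 8.16 in LCA flies, against 8.80, 8.67 and 8.77 in control flies, and its LCA replicate 3 alone fell short of the 75th percentile of its array. Cpr50Ca read 7.88, 7.69 and 7.60 in LCA flies, against 8.20, 7.34 and 7.69 in control flies. Its SD was 0.14 in LCA flies and 0.43 in control flies (n = 3 each), and that of Cpr62Bb was 0.11 in LCA flies and 0.37 in control flies. Cpr62Bb read 7.46, 7.62 and 7.41 in LCA flies, against 7.84, 7.41 and 7.12 in control flies. Cpr73D was steady, at 6.81, 6.77 and 6.91 in LCA flies, against 6.89, 6.75 and 7.00 in control flies.

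Values near the array median decide the count of 12. Cpr47Ef lay just above it, with 6.73, 6.70 and 6.39 in LCA flies, against 6.71, 6.85 and 6.87 in control flies, against a median of 6.38 on the array of LCA replicate 3. It is the only member with a further probe set of its own, and that one read 3.42 to 3.58 in LCA flies and 3.44 to 3.51 in control flies, so the gene counts as bright by 1 of its 2 probe sets. Cpr49Ab (6.78, 6.93 and 5.88 in LCA flies, against 6.80, 6.76 and 7.40 in control flies) and Cpr49Ag (6.52, 6.77 and 6.57 in LCA flies, against 6.37, 6.14 and 6.46 in control flies) were above the median on 5 of 6 arrays each. With these, 14 genes had a mean above the median of all probe sets.

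**Figure D2:**
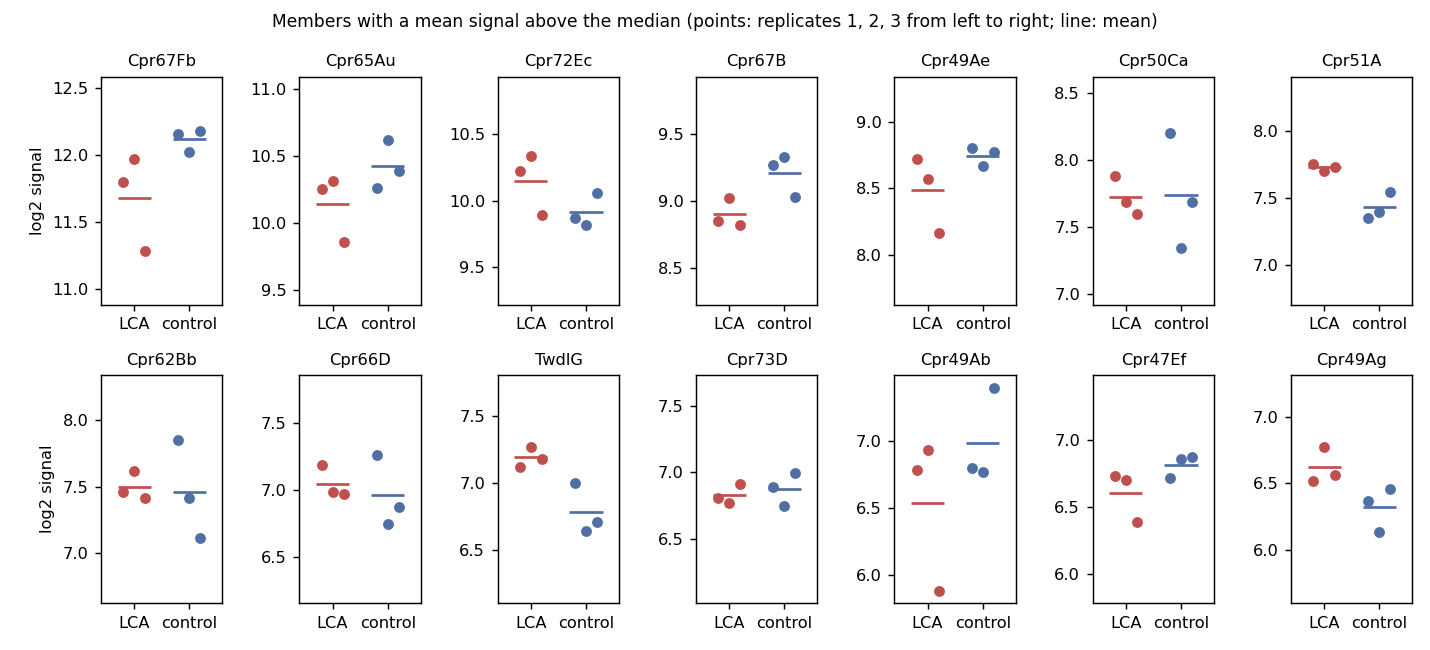
Log2 signal of the 14 cuticle protein genes with a mean above the median of all probe sets, in LCA arrays (left, red) and control arrays (right, blue); points are replicates 1, 2 and 3 from left to right, lines are means, and every panel spans the same log2 range. In Cpr67Fb, Cpr65Au, Cpr67B, Cpr49Ae, Cpr49Ab and Cpr47Ef the third LCA point is the lowest of 6, while Cpr51A, TwdlG and Cpr49Ag have all LCA points above all control points.

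The Tweedle genes other than TwdlG lay below the array median on every array. The next ones by mean were TwdlH (5.71), TwdlT (5.14) and TwdlP (4.97), and the lowest was TwdlS (2.88). TwdlD, a member whose mutants have squat larvae, read 4.01, 3.82 and 3.65 in LCA flies, against 3.87, 3.70 and 3.91 in control flies. Tb (Tubby), a Tweedle gene whose symbol keeps it out of the 92, averaged 4.41 ± 0.03 in LCA flies, against 4.42 ± 0.02 in control flies (SD, n = 3 each). Both of these body-shape genes were dim on both diets. In the Ccp84A group, Ccp84Ac had a mean of 4.13, Ccp84Ae of 3.94 and Ccp84Ag of 2.77, the lowest mean of the 92 genes.

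By the count over all 6 arrays, no 2 bright genes shared a run of neighbouring members. Counting consecutive protein-coding genes of the gene table, 65 of the 103 genes lay in 19 runs of at least 2 neighbouring members, and 38 lay in no such run. These 38 include TwdlU, which was not among the protein-coding genes, so its neighbours were not assessed. The rest of the 38 had no member next to them. In 13 of the runs no measured gene was above the array median on all 6 arrays, in 6 runs exactly 1 was, and no run held 2. Cpr67Fb, for example, lies beside Cpr67Fa2 and Cpr67Fa1, whose means were 3.95 and 3.55. Cpr72Ec lies beside Cpr72Eb and Cpr72Ea, with means of 3.50 and 3.49. The other runs with a bright gene were those of Cpr49Ae, Cpr62Bb, Cpr47Ef and TwdlG. Near-identical neighbours can share probes, and members whose probe sets name several genes are not counted as measured. The run of 12 Twdl genes on arm 3R (11 measured, highest mean 5.71 in TwdlH) and the run of 7 Ccp84A genes (3 measured) had none. By the mean alone, the run of Cpr49Ae also holds Cpr49Ag, and the run of Cpr49Aa holds Cpr49Ab.

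**Figure D3:**
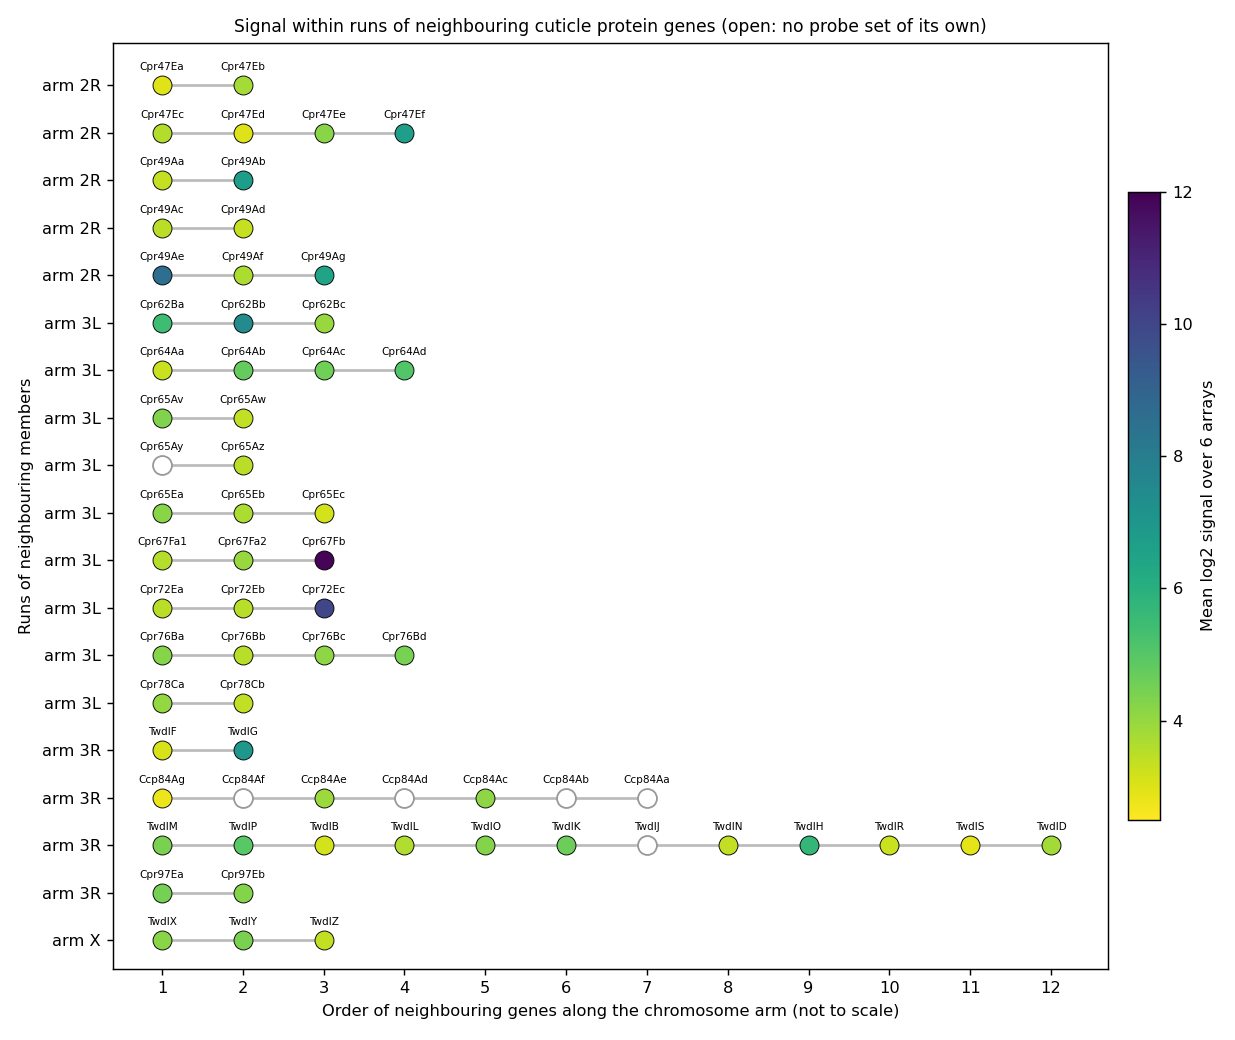
Runs of neighbouring cuticle protein genes in the order of the gene table (1 row per run, labelled by chromosome arm, not to scale), each circle coloured by the gene's mean log2 signal over 6 arrays; open circles have no probe set of their own. Cpr67Fb (11.9) and Cpr72Ec (10.0) are each the only dark circle of a row of 3, and the rows of Ccp84A and of 12 Twdl genes hold no dark circle.

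The comparison of diets asks whether flies fed LCA differed from control flies in these genes. No cuticle protein gene passed the threshold: limma placed 0 of 92 under an adjusted p of 0.05, and 0% of all 18769 probe sets passed (0 called). The lowest adjusted p of the 92 was 0.165. Without adjustment, 4 of 92 genes were lower (4.35%) and 5 higher (5.43%) in LCA flies at a limma p under 0.05. The same rule called 10.5% of all genes lower and 9.63% higher, and 8.59% and 7.53% of all probe sets, so neither count of cuticle genes is above the background. With quantile normalization the split was 4 lower and 3 higher, where 9.92% of all probe sets were lower and 6.3% higher. With median centring of the arrays it was 9 lower (9.78%) and 3 higher (3.26%), where 12.1% of all probe sets were lower and 4.92% higher. The LCA arrays lay entirely below the control arrays in 12 genes (13.0%) and entirely above them in 5 (5.43%), where the shares over all genes were 15.0% and 11.2%.

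As a group the genes had a median difference near 0, with wider differences among the bright ones when all 6 arrays were used. The median log2 difference over the 92 genes was −0.05 (LCA minus control), where over all genes it was −0.0016. With median centring of the arrays these medians were −0.10 and −0.05. The difference was within 0.25 of 0 in 78 of the 92 genes (84.8%), against 67.0% of all genes. Of the members with a mean below the median of all probe sets, 72 (92.3%) were within 0.25, against 80.3% of all such genes. Of the 14 members with a mean above it 6 were (42.9%), against 60.2% of all such genes. That share depended on LCA replicate 3. Without that array Cpr67Fb (−0.24), Cpr65Au (−0.14), Cpr49Ae (−0.10) and Cpr49Ab (−0.13) came within 0.25, and Cpr72Ec (0.36) no longer was. A negative difference was found in 62.0% of the 92 genes and in 50.3% of all genes. Among the 78 genes with a mean below the median of all probe sets, 2 were lower and 2 higher at an unadjusted p under 0.05, where the rule called 6.13% of all such dim genes lower and 6.67% higher. Among the 14 genes with a mean above it, 2 were lower and 3 higher, where it called 12.7% of all such genes lower and 11.1% higher. In whole flies, fewer cells that make a transcript and less transcript per cell cannot be told apart.

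The 5 genes higher in LCA flies at an unadjusted p under 0.05 were TwdlG, Cpr51A, Cpr49Ag, TwdlT and Cpr56F. TwdlG read 7.12, 7.27 and 7.18 in LCA flies, against 7.00, 6.64 and 6.71 in control flies, a log2 difference of 0.41 ± 0.11 (limma SE, adjusted p = 0.203). Cpr51A read 7.75, 7.71 and 7.73 in LCA flies, against 7.35, 7.40 and 7.54 in control flies, a difference of 0.30 ± 0.08 (limma SE, adjusted p = 0.205). In both genes every LCA array was above every control array, and the unadjusted p stayed under 0.05 whichever array was left out. TwdlT, a dim gene, also held in all 6 of those fits. It read 5.25, 5.28 and 5.39 in LCA flies, against 4.89, 5.14 and 4.88 in control flies, a difference of 0.34 ± 0.10 (limma SE, adjusted p = 0.227).

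Cpr49Ag and Cpr56F were less steady. Cpr49Ag had a difference of 0.30 ± 0.12 (limma SE, adjusted p = 0.293), and its unadjusted p stayed under 0.05 in 3 of 6 fits without 1 array. It was lost without LCA replicate 2, LCA replicate 3 or control replicate 2. Cpr56F read 5.68, 5.99 and 6.23 in LCA flies, against 4.86, 5.38 and 5.83 in control flies. Its difference of 0.61 ± 0.25 (limma SE, adjusted p = 0.305) was the highest of the 92, but the diets overlapped, since control replicate 3 lay above LCA replicate 1. The p stayed under 0.05 in 2 of 6 fits without 1 array and was lost without LCA replicate 2 or 3 or control replicate 1 or 2. Without control replicate 1 the difference was 0.37. With the replicate number as a block, limma's unadjusted p was 0.0025 for Cpr56F (adjusted p = 0.165) and 0.076 for Cpr49Ag. Among dim genes TwdlL, with 3.83, 3.68 and 3.70 in LCA flies, against 3.47, 3.61 and 3.57 in control flies, also had groups that did not overlap (0.19 ± 0.09, limma SE, adjusted p = 0.330).

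The 4 genes lower in LCA flies at an unadjusted p under 0.05 were Cpr49Ah, Cpr49Aa, Cpr67B and Cpr67Fb. Cpr49Ah had the most negative difference and the smallest p of the 92. It read 4.14, 3.47 and 3.46 in LCA flies, against 4.77, 4.33 and 4.60 in control flies, a difference of −0.87 ± 0.21 (limma SE, 1.83-fold lower, adjusted p = 0.165). No LCA array reached a control array, and the unadjusted p stayed under 0.05 in all 6 fits without 1 array, with differences from −1.10 to −0.76. All of its values lay below the array median, and those of LCA replicates 2 and 3 were under the 25th percentile of their arrays (3.60 and 3.68). Cpr49Aa, dimmer still, read 3.12, 3.20 and 3.31 in LCA flies, against 3.50, 3.53 and 3.42 in control flies (−0.27 ± 0.09, limma SE, adjusted p = 0.237). Its p stayed under 0.05 in 4 of 6 such fits, the exceptions being those without LCA replicate 1 or control replicate 2. All 6 of its values lay below the 25th percentile of their arrays, and with a floor at that percentile the difference was −0.02 and no longer under that threshold.

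Of the bright genes, Cpr67B differed by −0.31 ± 0.11 (limma SE, adjusted p = 0.272) and Cpr67Fb by −0.44 ± 0.18 (limma SE, adjusted p = 0.294), with no overlap of the diets in either. For Cpr67B the p stayed under 0.05 in 2 of 6 fits without 1 array, and was lost without LCA replicate 1 or 3 or control replicate 1 or 2. For Cpr67Fb it stayed under 0.05 only without LCA replicate 2. Without LCA replicate 3 the Cpr67Fb difference was −0.24. The other genes whose LCA arrays all lay below the control arrays were dim, and none had an unadjusted p under 0.05. They were TwdlN (−0.19), TwdlM (−0.22), Cpr65Ec (−0.19), Cpr5C (−0.21), Cpr97Ea (−0.13), Cpr64Ad (−0.13), TwdlC (−0.08) and Cpr47Eg (−0.05). With the same floor TwdlN and Cpr65Ec were at −0.02 and Cpr5C at −0.05, and without control replicate 1 TwdlM was at −0.14 and Cpr64Ad at −0.05.

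**Figure D4:**
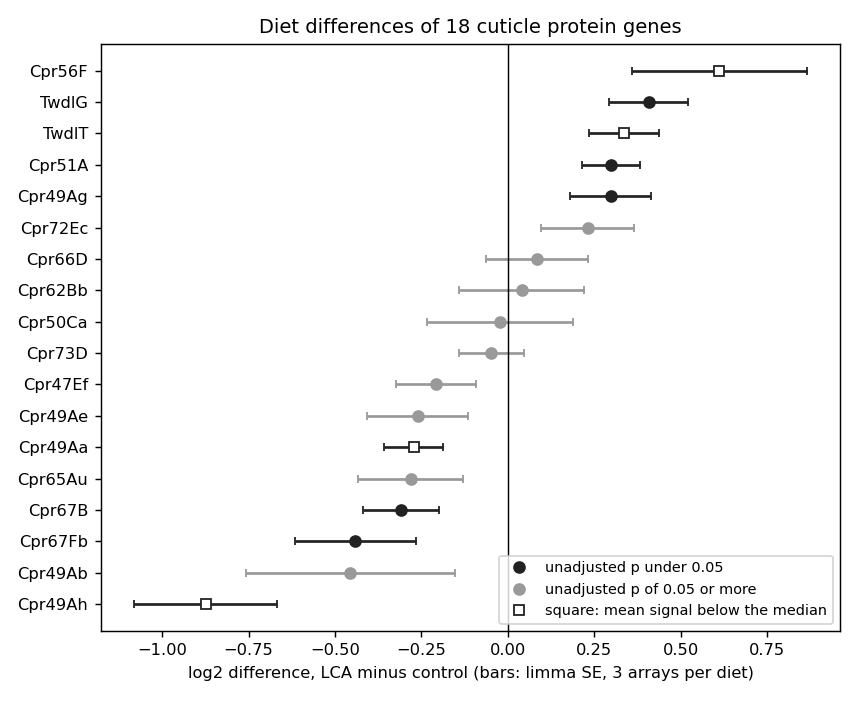
Log2 difference, LCA minus control, with limma's SE (3 arrays per diet) for the 18 cuticle protein genes that have a mean above the median of all probe sets (circles) or an unadjusted p under 0.05 (black; squares are dim genes). Differences run from −0.87 in Cpr49Ah to 0.61 in Cpr56F, and no gene passes the adjusted threshold.

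The remaining genes with a mean above the median had an unadjusted p of 0.05 or more. Cpr65Au (−0.28 ± 0.15), Cpr49Ae (−0.26 ± 0.15), Cpr47Ef (−0.21 ± 0.12) and Cpr49Ab (−0.46 ± 0.30) had negative differences (limma SE). Without LCA replicate 3 these were −0.14, −0.10, −0.10 and −0.13. The lens gene Cpr72Ec was at 0.23 ± 0.13 (limma SE, adjusted p = 0.412), at 0.14 without LCA replicate 2 and at 0.36 without LCA replicate 3, the 1 fit of 6 in which its unadjusted p was under 0.05. Cpr66D (0.08 ± 0.15), Cpr62Bb (0.04 ± 0.18), Cpr50Ca (−0.02 ± 0.21) and Cpr73D (−0.05 ± 0.09) had differences smaller than their SE (limma), and the sign of each turned when some array was left out. Of the 8 genes at 49A, 3 had a positive difference (Cpr49Ag at 0.30, Cpr49Af at 0.17 and Cpr49Ac at 0.07) and 5 a negative one (Cpr49Ah, Cpr49Ab, Cpr49Aa, Cpr49Ae and, at −0.04, Cpr49Ad), and Cpr49Aa, Cpr49Ag and Cpr49Ah alone had an unadjusted p under 0.05. Of the dim genes, Ccp84Ac was at −0.26 ± 0.12 and TwdlE at −0.50 ± 0.33 (limma SE, adjusted p of 0.327 and 0.476), and Acp65Aa at 0.07 ± 0.10. Without LCA replicate 1 Ccp84Ac was at −0.17, and without LCA replicate 2 TwdlE was at −0.16.

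LCA replicate 3 gave the lowest of the 6 values in 6 of the 14 genes with a mean above the median, and so did control replicate 2. Over these 14 genes the median deviation from each gene's own mean was −0.14 in LCA replicate 3, against 0.04 and 0.05 in LCA replicates 1 and 2 and 0.04, −0.08 and 0.01 in control replicates 1 to 3. Over all 92 genes it was 0.01 in LCA replicate 3, which was lowest in 20 of them, against 18 each for LCA replicate 1 and control replicate 2. Markers of oenocytes, cells that lie under the epidermis and make cuticular hydrocarbons, were low in that array too, and 5 of the 6 measured had their lowest value there. Cyp4g1, the P450 that makes these hydrocarbons, read 12.62, 11.20 and 10.14 in LCA flies, against 12.97, 13.31 and 13.90 in control flies. All 6 measured genes listed for oenocytes had a negative difference, 5 of them without overlap. Their summed linear signal was 2571 to 8570 in LCA flies and 10722 to 18940 in control flies. Such a sum weighs the brightest gene most, here Cyp4g1, so it is no separate measure from that gene. The differences were uneven: Fad2, 1 of those 5, was dim (mean 3.29) and at −0.14 (limma unadjusted p = 0.104), and bond, bright at a mean of 10.1, was at −0.06. Whether Fad2 and bond read oenocytes in these males was not tested. The part of these cells in the cuticle gene values was not tested.

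Other measures differed between the diets too. Of 4 tracheal markers (btl, Gasp, verm and serp) all 4 were lower, btl and Gasp without overlap (summed linear signal 317 to 332 in LCA flies, against 363 to 415 in control flies), and all 5 photoreceptor genes measured of 13 listed markers (trp, trpl, Arr1, Arr2 and chp) were higher without overlap (30324 to 31922 in LCA flies, against 24123 to 24567 in control flies). Gasp also stands in the list of structural proteins described next, and verm and serp in that of chitin assembly, so the tracheal markers are no separate measure from those lists. Of the 4 tracheal markers Gasp alone was above the array median, and the other 3 lay below it on all 6 arrays. Of 15 testis markers 14 were higher, 5 without overlap (40100 to 46524, against 19455 to 40366 in control flies). Of 10 genes listed for the fat body 7 were lower, with Lst, FASN1 and Desat1 free of overlap, but Lst (limostatin) is a hormone gene of the corpora cardiaca (28875 to 35471, against 36903 to 42441 in control flies). Yp1, Fbp1 and Fbp2 of that list lay below the array median on all 6 arrays, as did TpnC4 and fln of the flight muscle list. Flight muscle markers (5 of 6 lower, none without overlap, 4629 to 5194 in LCA flies, against 5139 to 5692 in control flies), midgut markers (4 of 5 higher, none without overlap, 27338 to 31936 in LCA flies, against 17623 to 34364 in control flies) and male accessory tract markers (5 of 8 higher, 47439 to 47962 in LCA flies, against 49866 to 54175 in control flies, so that the summed signal and most single differences had opposite signs) went with diet less uniformly. The log2 difference between 3′ and 5′ control probe sets, which reads RNA integrity, was 3.45 to 3.61 in LCA arrays and 2.97 to 3.43 in control arrays. The part of these measures in the cuticle gene values was not tested.

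The other structural proteins of the cuticle were mostly dim too. Of 24 measured genes, which include larval and pupal cuticle proteins, the elastic protein resilin and chitin-binding obstructor proteins, 19 lay below the array median on all 6 arrays and 3 above it. Limma counted 3 lower (12.5%, against 10.5% of all genes) and 0 higher at an unadjusted p under 0.05 (0 past the adjusted threshold), with a median difference of −0.06. They were obst-E, a chitin-binding protein that shapes the pupal case (−0.41 ± 0.10, limma SE, adjusted p = 0.177), CG8543 (−0.33 ± 0.10) and Gasp (−0.25 ± 0.09). obst-E read 7.50, 7.29 and 7.17 in LCA flies, against 7.75, 7.72 and 7.73 in control flies, without overlap.

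Of 17 measured genes listed for the tanning and hardening of cuticle, 9 (52.9%) were above the array median on all 6 arrays. Of 14 genes of chitin synthesis and matrix assembly 7 (50.0%) were, against 61.6% of all genes. The tanning list takes in the yellow genes as a family, and the part of each listed gene in tanning was not tested. In the tanning list 15 of 17 had a negative difference (median −0.13), and limma counted 6 lower (35.3%, against 10.5% of all genes) and 0 higher (against 9.63%) at an unadjusted p under 0.05, 0 past the adjusted threshold. LCA replicate 3 gave the lowest value in 9 of the 17. Among the 6 lower genes were yellow-f2, an enzyme of the melanin pathway (−0.64 ± 0.14), yellow-b (−0.59 ± 0.13), stw, the laccase that oxidizes catechols to harden cuticle (−0.41 ± 0.11), and yellow-g (−0.32 ± 0.09), all with limma SE. Of these, yellow-g was dim, with a mean of 4.09. Without LCA replicate 3 yellow-f2 was at −0.52, yellow-b at −0.53, stw at −0.39 and yellow-g at −0.27. In that fit limma's unadjusted p was under 0.05 for each of them. Pu and e, the rest of the 6, were not run without that array. Averaged over all its probe sets, stw was at −0.19. In the chitin list limma counted 2 lower (14.3%) and 1 higher (7.14%) by the same rule (median −0.11, 0 past the adjusted threshold). Lower were Gnpnat, an enzyme of the synthesis of the chitin precursor (−0.45 ± 0.11), and exp, which acts in chitin secretion in the trachea (−0.36 ± 0.09), and higher was Cda9, a chitin deacetylase (0.92 ± 0.18, limma SE). Of these, exp was dim, with a mean of 4.62. Averaged over all probe sets of the gene, Gnpnat was at −0.26 and exp at −0.22.

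A list of 10 measured genes of the apical matrix held zona pellucida domain proteins and also f (forked), which bundles actin and has no such domain. Limma counted 0 lower and 1 higher in it at an unadjusted p under 0.05 (median −0.01). A list of 15 measured genes held transcription factors of the epidermis and of ecdysone signalling, and also E23, an ecdysone-induced ABC transporter. It had 1 lower and 1 higher (median 0.01). Of 16 chitinases and chitinase-like growth factors 5 were lower (31.2%, against 10.5% of all genes) and 3 higher (18.8%, against 9.63%). The 5 lower ones were all among the 6 Idgf genes, the chitinase-like growth factors (median −0.52), and the 3 higher ones, Cht6, Cht8 and Cht12, among the 10 Cht genes (median 0.24). LCA replicate 3 gave the lowest value in all 6 Idgf genes, and its part in their difference was not tested. In each of these 3 lists 0 passed limma's adjusted threshold.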

How the data were processed

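The data are 1 table of log2 signals as deposited by the authors, 18952 probe sets by 6 arrays. Its values ran from 2.32 to 14.6, a range that fits log2 and not a natural log of 16-bit scanner values. Summarization, background correction and normalization of the probes are not given in the sources used here, and the table holds no detection call. The 183 array controls were left out, and the other 18769 probe sets were fitted together.

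Probe sets were named through GEO's platform annotation and the gene table of assembly Release 6 plus ISO1 MT, which served for names, chromosome arms and gene order. Of these probe sets, 13647 carried a single symbol, of which 13544 matched the gene table, while 402 carried several and 4720 none here. Where a gene had several probe sets, the one with the highest average of the 6 arrays stood for it, leaving 11982 genes.

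The model, LCA minus control without covariates, used lmFit and eBayes of limma 3.58.1 (R 4.3.3). P-values of the 18769 probe sets were adjusted together by the Benjamini-Hochberg method, with 0.05 as threshold. An SE is limma's moderated one. The fit was tested on simulated data. Alternatives were quantile normalization, median centring, filters and a floor on dim values, an intensity trend, array weights, the replicate number as a block, other choices of probe set, and leaving out each array. The members, the gene lists and the tests were chosen with earlier results of these data known. The text names members above the 75th percentile of signal, the 10 members per direction with the smallest p among those whose diets did not overlap, Acp65Aa, the extremes of each subfamily and the members beside the array median, and up to 4 genes of each other list by p. Cpr56F, TwdlE and the other genes outside that rule were named after their values were seen. With 3 arrays per diet, the number of arrays limits the precision. No batch, slide or scan date is given in the sources used here.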

Additional observations from a re-analysis of the deposited data

How the results depend on the processing

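No cuticle protein gene passed limma's adjusted threshold in any alternative except array weights, which gave 26 of 92. That fit stopped before it converged, set control replicate 2 at a weight of 24.0 and called 6861 of all probe sets. It also gave 25 members lower and 17 higher at an unadjusted p under 0.05, against 4 and 5. Median centring gave 9 lower and 3 higher, quantile normalization 3 higher, a floor at the 25th percentile 2 lower, and a fit on the upper part by signal, which leaves 14 members, 2 lower and 3 higher. Leaving out 1 array gave 2 to 8 lower (2 without LCA replicate 1, control replicate 1 or control replicate 2, 8 without control replicate 3, where 12.3% of all probe sets were lower and 14.0% higher) and 3 to 7 higher (3 without LCA replicate 2 or control replicate 2). The median difference was −0.10 with median centring and −0.02 with the floor. The count of bright genes was 11 to 13. Signs turned for Cpr50Ca (0.39 with array weights, −0.22 to 0.21 without 1 array), Cpr62Bb (−0.01 with quantile normalization and with median centring, −0.13 to 0.23 without 1 array), Cpr66D (−0.02 to 0.24) and Cpr73D (0.06 with array weights, −0.11 to 0.01). The causes were not tested. Of the 38 genes run through the alternatives, the other 34 kept their sign in each that measured them, and other named genes, TwdlC and Cpr47Eg among them, were not run. The replicate number as a block gave 3 members lower and 4 higher. Same-numbered arrays had correlations of their deviations of 0.26, −0.02 and 0.02, and LCA replicate 2 had one of 0.26 with control replicate 3. The deviations of 3 arrays from their own mean are tied to one another. These correlations therefore cannot tell whether samples of the same number were paired. At dim signals, and with 3 arrays per diet, small differences cannot be resolved.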
